A study of Mus musculus with 12 samples.

Results

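The transcriptome of sorted hematopoietic stem cells was compared between Thpo-deficient mice, which cannot make the cytokine thrombopoietin, and wild-type mice, in both cases without an agonist. The comparison used 6 of the 12 libraries of the series, 3 of untreated knockout (Thpo-/-) and 3 of untreated wild type (Thpo+/+), all from C57BL/6 mice. Its members were the genes with an FPKM (fragments counted for a gene, divided by its length and by library depth) of at least 1 in at least 3 of these 6 libraries, which held for 12418 of the 35275 genes in the table. The other 6 libraries came from wild-type and knockout mice that received Romiplostim, an agonist that acts in place of thrombopoietin, at 100 µg/kg per day intravenously for 10 days. The protocol names PBS for the controls, whereas the treatment label of the 6 libraries reads untreated. Flow cytometry delivered the cells straight into an RNA extraction reagent, and the libraries were made with the SMARTer Ultra Low kit, whose reads carry no strand information. The labels state neither the sort gate, the age of the mice nor whether the 3 libraries of a group came from separate animals. The p-values therefore measure the spread between these libraries, which may be in part technical.

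Thrombopoietin is a cytokine made mainly in the liver. It acts on megakaryocytes, their progenitors and hematopoietic stem cells, and signals through the kinase JAK2 to STAT5, STAT3, RAS and PI3 kinase. Mice without thrombopoietin have few platelets and few stem cells, and in the stem cell compartment the cytokine is known for its role in keeping cells quiescent. STAT5 switches on inhibitors of the pathway, among them CISH and the SOCS proteins, so that their transcripts are used as a readout of its signalling.

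The 6 libraries held 28.7 to 35.2 M fragments, recovered from the steps of the low FPKM values, and 11698 to 12374 genes per library had an FPKM of at least 1. A 2 kb gene with 3 fragments has 0.0426 to 0.0523 FPKM in these libraries, a floor for counting error only. Each group was sequenced on its own run, per the design text, which leaves an effect of the run and one of the genotype mixed: they cannot be told apart. Across the genes tested, the correlation of log2(FPKM + 1) between libraries was 0.972 to 0.990 within a group and 0.867 to 0.904 between groups. Knockout replicate 3 stood apart from its group, with 393 genes more than 2-fold above both other knockout libraries, and wild-type replicate 1 had 162 genes more than 2-fold below both other wild-type libraries. The mean FPKM of 4 Y-linked genes was 22.5, 0.137 and 23.2 in wild-type replicates 1, 2 and 3, and 14.7, 24.9 and 11.3 in the knockout. Xist, expressed from the inactive X chromosome of female cells, stood at 0.0818, 40.2 and 0.203 FPKM in wild type and at 4.91, 0.0398 and 8.70 in the knockout, so that knockout replicates 1 and 3 held both kinds of transcript. Within each group the libraries therefore did not all hold cells of the same animals, and the number of animals per library is not stated. Thpo itself (chromosome 16, 20724454 to 20734511, mm10) was listed at 0 in 5 of the 6 libraries and at 0.0208 FPKM in wild-type replicate 3, under the 0.0391 FPKM that 3 fragments give there. It therefore does not check the genotype labels.

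The label of a stem cell was checked against markers first. The 19 reporter genes that mark the most primitive stem cells summed to 10836 to 11745 FPKM in the wild-type libraries and to 2850 to 3309 in the knockout. Ifitm1 and Ifitm3, among the 10 most abundant genes of wild type, belong to this list and weigh on the sum. The mean of log2(FPKM + 1) over the 19 genes was 6.485 to 6.567 in wild type and 4.334 to 4.674 in the knockout. Genes of most differentiated cell types moved the other way. Exceptions were the 27 mast cell and basophil genes, with sums of 1496 to 2555 FPKM in wild type and 1128 to 1343 in the knockout. The 41 megakaryocyte and platelet genes, at 2446 to 2992 and 1705 to 2360 FPKM, were lower as well. The 39 genes of B cell precursors summed to 756 to 803 FPKM in wild type and to 4292 to 9705 in the knockout, and the 257 immunoglobulin segments to 54.8 to 232 and 9139 to 15342. The 29 genes of marrow macrophages summed to 2221 to 2853 FPKM and 6840 to 9659, the 40 erythroid genes to 4118 to 5463 and 8216 to 25431, and the 26 neutrophil genes to 1680 to 4166 and 7221 to 49274, with the highest erythroid and neutrophil sums in knockout replicate 3. Of the 33 genes of T and NK cells, Cd8a, Zap70, Klrd1 and Ncr1 were listed at 0 in all 3 wild-type libraries, and none was listed at 0 in all 3 knockout libraries. In libraries of pooled cells, fewer cells of a type and less RNA per cell cannot be told apart, and the part that such markers have in the results below was not tested. The text keeps the label of the sort, with this limit.

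Between the untreated genotypes 5666 of the 12418 genes changed (45.6%, limma with Benjamini-Hochberg adjusted p under 0.05), 2790 upward (22.5%) and 2876 downward (23.2%). In 56.5% of the genes the values of the 3 knockout libraries did not overlap those of the 3 wild-type libraries. The numbers of rises and falls were alike, but the largest changes were mostly rises. At least 2-fold changes on the log2(FPKM + 1) scale comprised 1256 rises and 963 falls, changes of 4-fold or more 543 rises and 88 falls, and changes of 8-fold or more 256 rises and 9 falls. The balance at 2-fold depended on the processing. It was 1149 rises and 1199 falls with quantile normalization, and 1441 and 1384 with 0.1 in place of 1 added to the FPKM. The larger changes were not counted in other settings. A total of 73 genes had at least 5 FPKM in every knockout library and at most 0.5 in every wild-type library, and only Lbhd2, which has no well-established role, showed the opposite pattern (5.58, 7.12 and 5.18 FPKM in wild type, 0.453, 0 and 0.319 in the knockout).

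**Figure D1:**
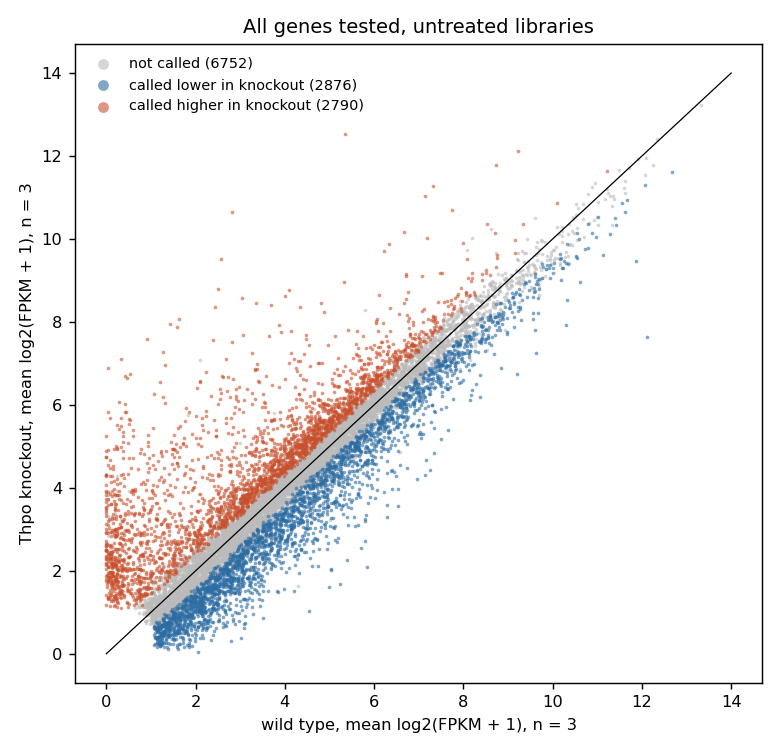
Mean log2(FPKM + 1) of the 3 untreated wild-type libraries (x axis) and of the 3 untreated knockout libraries (y axis) for the 12418 genes tested, with the 2790 called higher and the 2876 called lower in colour. Large departures from the diagonal lie mostly above it, with 256 rises and 9 falls of 8-fold or more.

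The filter itself favoured such genes at its edge. Of the genes tested, 571 stayed under 1 FPKM in all wild-type libraries and 342 in all knockout libraries, and such genes passed through 1 group alone. Among the 11505 others, 4814 were called (41.8%), 2257 higher and 2557 lower. Exactly 3 libraries reached 1 FPKM for 1029 genes, which were tested, with a median of 3.44 FPKM in their highest library. Exactly 2 libraries did so for 477 genes, which were not tested, with a median of 1.62. At the other end, the 95% interval of the log2 fold change lay within 0.5 either way for 2254 genes (18.2%). They included the ferritin chains Ftl1 and Fth1, the MHC class I gene H2-D1, the histone chaperone Npm1, the actin regulator Cfl1 and the tubulin Tuba1b. Cfl1, for example, stood at 1378, 1436 and 1397 FPKM in wild-type replicates 1, 2 and 3 and at 1353, 1459 and 1491 in the knockout (log2 fold change ± SE 0.03 ± 0.12). Lists share some genes, which count in each. Their counts stand beside the shares over all genes, 22.5% higher and 23.2% lower, and no difference between lists was tested. Lists of differentiated cells hold members that stayed under 1 FPKM in every wild-type library, among them 4 each of the tested erythroid, neutrophil, lymphoid progenitor and stromal genes, 3 of the mast cell genes and 2 each of the myeloid progenitor, megakaryocyte and dendritic cell genes. Under 1 FPKM in every knockout library were 2 each of the reporter and ageing genes and 1 of the stem cell transcription regulators. These passed the filter through wild type alone. Values of single libraries follow the order of the replicates 1, 2 and 3, and where 3 values stand against 3 others, wild type comes first.

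The signalling pathway was described first, since the missing cytokine acts there. The kinase Jak2 stood at 7.34, 10.2 and 8.6 FPKM in wild type and 12.1, 10.2 and 10.4 in the knockout, with overlapping groups. Stat5a, one of the pair of STAT5 genes, had 30.9, 43.1 and 44.1 FPKM against 45.5, 33 and 33.4, also overlapping, and its log2 fold change of −0.07 (95% interval −0.45 to 0.30) did not pass the test. For Stat5b, the other STAT5 gene, the difference was 0.18 (−0.33 to 0.69). Among the other relays Stat3 fell by 0.46 and the phosphatase gene Ptpn11 by 0.59, while Lyn, a SRC family kinase, rose by 1.22 (19.5, 34.9 and 30.4 to 59, 62.1 and 76.2 FPKM). The calls of Stat3, Ptpn11 and Map2k2 were each lost without at least 1 library, that of Stat3 without any of the 6 (adjusted p from 0.0579 to 0.141). The PI3 kinase subunit Pik3r1 fell by 0.88, and the RAS pathway genes Hras, Shc1 and Map2k2 rose by 0.52, 0.52 and 0.34. In all, 6 of the 29 tested genes of the pathway rose and 4 fell, neither share above that of all genes, with a median log2 fold change of 0.16 beside −0.02 over all genes tested. Only 10 of the 29 genes were called, and 19 did not pass. Without wild-type replicate 3 or knockout replicate 3, 2 of the genes fell in place of 4.

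Most inhibitors of the pathway did not pass the test, and 3 of the SOCS family fell. Of 21 tested 4 fell, 1 rose and 16 did not pass, beside 23.2% and 22.5% of all genes, with a median of 0.14. Cish, a STAT5-induced inhibitor of cytokine receptors, had 39.9, 58.3 and 28.9 FPKM in wild type and 3.22, 3.86 and 4.24 in the knockout, and the lowest wild-type library exceeded the highest knockout library several times over (−3.13 ± 0.32, adjusted p = 2.7e-05). Socs2, another inhibitor that STAT5 induces, had 106, 60.2 and 72.5 FPKM against 8.29, 13.1 and 12.4 (−2.7 ± 0.30, adjusted p = 4.76e-05). Socs1 followed at 26.9, 20.8 and 17.7 against 5.5, 6.53 and 11.7 FPKM (−1.4 ± 0.30). These 3 genes fell, with no overlap between groups. Socs3, by contrast, stood at 78.8, 8.57 and 16.5 FPKM in wild type and 8.44, 8.43 and 14.5 in the knockout. Only wild-type replicate 1 was high, the other libraries were alike, and the difference did not pass (adjusted p = 0.163). The fourth to fall was the RAS pathway inhibitor Spry1 (−0.85), whose groups overlap and whose call was lost without knockout replicate 1 or 2 or wild-type replicate 1 or 2. The lipid phosphatase gene Inpp5d was the 1 that rose (0.72), but not without knockout replicate 2, and 3 rose with median-of-ratios scaling. Sh2b3, which codes for the adaptor LNK, and the phosphatase gene Ptpn6 did not pass (0.45 and 0.26).

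**Figure D2:**
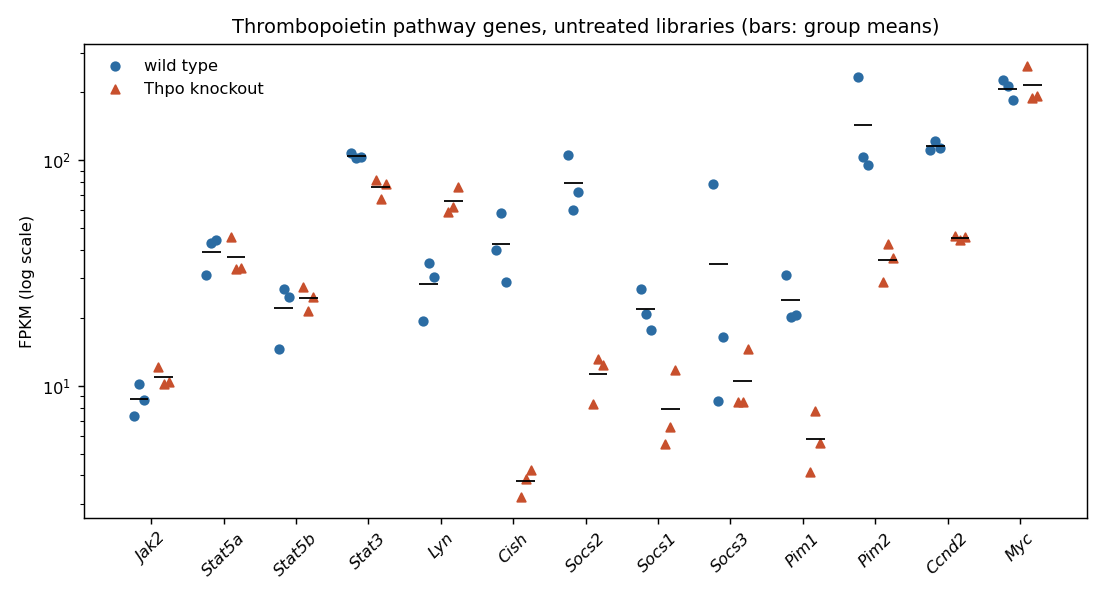
FPKM (log scale) of relay, inhibitor and target genes in each untreated library, with wild-type libraries as circles, knockout libraries as triangles and group means as bars. Cish, Socs1, Socs2, Pim1, Pim2 and Ccnd2 are lower in every knockout library, whereas Jak2, Stat5a, Stat5b and Myc overlap.

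The start region of Cish, the inhibitor with the largest fall, is shown because it holds letters that STAT proteins are known to bind. The motif searched was TTCNNNGAA, whose reverse complement reads the same, in the window around each start site that the RefSeq table (GRCm38.p6) gives, mostly upstream. Cish held a pair of neighbouring matches just after its annotated start, at chr9:107296649-107296677 and chr9:107296660-107296688 on the plus strand, and Socs3 held 1 match upstream, at chr11:117969502-117969530 on the minus strand. The stretches are printed 5′ to 3′ with the match in capitals.
Cish, first match: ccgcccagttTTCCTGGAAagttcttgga
Cish, second match: tcctggaaagTTCTTGGAAatctgtcaaa
Socs3: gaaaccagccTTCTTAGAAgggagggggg
The motif occurred in 6.86% of the 9443 tested genes with a promoter in the table, in 6.81% of those that rose and in 7.0% of those that fell. These shares lay close together, and a match describes the letters only.

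Among 21 tested genes that STAT5 is known to control, 3 fell and 4 rose, beside 23.2% and 22.5% of all genes. The 3 that fell were growth genes. Pim1, a survival kinase, had 30.8, 20.1 and 20.7 FPKM in wild type and 4.12, 7.71 and 5.54 in the knockout (−1.88 ± 0.24, adjusted p = 0.000111). Its relative Pim2 had 233, 104 and 95.2 against 28.9, 42.7 and 36.9 FPKM, with wild-type replicate 1 the highest (−1.86 ± 0.35). Ccnd2, the D cyclin that drives entry into the cell cycle, had 111, 122 and 113 against 46.1, 44.4 and 45.5 FPKM, with hardly any spread within either group (−1.33 ± 0.16, adjusted p = 6.16e-05). The cyclin Ccnd3 rose by 0.84 (a call lost without knockout replicate 2 or wild-type replicate 2), the hypoxia factor Hif1a by 0.67, the growth factor Vegfa by 0.68 and the differentiation inhibitor Id2 by 1.41. Myc (0.04), the survival gene Bcl2l1 (0.24), Mcl1 (0.31), Id1 (−0.24) and Pim3 (0.05) did not pass the test. The third D cyclin, Ccnd1, stood at −0.57 and did not pass (adjusted p = 0.0786).

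Most receptors of cytokines did not pass the test. Of 38 tested, 12 rose, 3 fell (7 without wild-type replicate 1 and 6 with quantile normalization) and 23 did not pass, beside 22.5% and 23.2% of all genes, and 5 of the 38 were under 1 FPKM in every wild-type library. Epor, the erythropoietin receptor, had 9.75, 12.3 and 11.9 FPKM in wild type and 60.9, 52.7 and 55.2 in the knockout, all 3 knockout libraries being close together (2.22 ± 0.27). Csf1r, the receptor of macrophage colony-stimulating factor, had 0.325, 0.271 and 0.321 against 19.1, 23 and 8.16 FPKM. Il7r, which lymphoid progenitors need, had 0.159, 0.0319 and 0.0643 against 9.46, 24.6 and 9.41 FPKM. Both stayed under 1 FPKM in every wild-type library and were highest in knockout replicate 2. The thymus-homing chemokine receptor Ccr9 rose by 2.27, and the interleukin-10 receptor chains Il10ra and Il10rb rose by 2.26 and 0.84. Kit, the receptor of stem cell factor, had 105, 154 and 147 FPKM against 131, 85.7 and 68.2, with overlapping groups and a difference that did not pass (−0.54, adjusted p = 0.0648).

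Genes by which stem cells are recognised were lower in the knockout. Of 32 tested surface markers 17 fell and 4 rose (median −0.97), and of the 19 reporter genes 17 fell and 0 rose (median −2.02). Of the reporter genes, 2 were under 1 FPKM in every knockout library, so that they could only fall. Procr, the endothelial protein C receptor, had 130.2, 141 and 151 FPKM in wild type and 22.2, 18.2 and 16.5 in the knockout (−2.84 ± 0.25). Cd48, a surface protein absent from primitive stem cells, went the other way, from 17.6, 12.6 and 20.8 to 113, 214 and 145 FPKM (3.11 ± 0.28). The knockout libraries lay far outside the wild-type range for both genes. The junction proteins Jam2, Jam3 and Esam fell by 1.96, 2.48 and 1.85, and the tetraspanin Cd63 by 1.79. Among the reporters, Krt18, a keratin, had 179.7, 137 and 117 against 32.1, 20.8 and 22.1 FPKM, Tcf15, a transcription factor of the most quiescent stem cells, 42.6, 29.9 and 33.7 against 7.52, 3.78 and 5.73, and Ndn, an imprinted growth suppressor, 46.9, 39.1 and 64.7 against 9.02, 6.2 and 8.0. The groups of these 3 genes were separate by more than 3-fold at their nearest libraries. Ly6a, the SCA-1 antigen on which stem cells are often sorted, had 619, 814 and 860.2 FPKM against 181, 251 and 427 (−1.49 ± 0.29), and Cd34 96.7, 88.8 and 88.8 against 87, 59.5 and 44.4, which did not pass (adjusted p = 0.151).

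Transcription regulators of stem cells showed the same direction, with 28 of 48 tested lower, 5 higher and a median of −0.82. Hox genes are homeobox factors that are switched off as blood cells mature. Those that passed the filter fell, namely Hoxa3, Hoxa5, Hoxa6, Hoxa7, Hoxa9, Hoxa10, Hoxb5 and Hoxb6, by 0.75 to 1.73. Of these, Hoxa3, Hoxa6, Hoxb5 and Hoxb6 stayed under 1 FPKM in every knockout library. They passed the filter through wild type alone and could only fall. Hoxa9 had 63.8, 52.1 and 42.7 FPKM in wild type and 29.2, 20.002 and 18.7 in the knockout, and Hoxa5 8.44, 8.17 and 4.78 against 1.64, 1.21 and 1.38. The leukemia-associated factors Mecom (31.1, 38.1 and 29.6 against 11.1, 4.97 and 7.03 FPKM) and Meis1 (114, 136 and 121 against 60.5, 38.3 and 35.9 FPKM) also fell, with knockout replicate 1 the highest of its group for both. Mllt3 fell by 1.63, the RNA-binding protein gene Msi2 by 1.45 and the homeobox gene Nkx2-3 by 2.08. The rises were led by Id3, an inhibitor of E proteins (5.99, 2.82 and 2.92 against 57, 167 and 142 FPKM), and Satb1, a chromatin organiser of lymphoid cells (1.69, 1.78 and 1.85 against 8.97, 15.4 and 16 FPKM). Among E proteins themselves Tcf3, which B cell development requires, rose by 1.59, whereas Tcf12 (0.32) and Tcf4 (0.33) did not pass.

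Some imprinted and quiescence genes fell. Of 25 imprinted growth genes in the list 9 passed the filter, of which 6 fell and 1 rose, the matrix proteoglycan gene Dcn. Cdkn1c, the CDK inhibitor p57, had 31.7, 21.1 and 21.5 FPKM in wild type and 6.48, 4.54 and 6.55 in the knockout (−1.9 ± 0.29). Grb10, an imprinted adaptor of growth factor receptors, had 26.3, 24 and 33 against 11.2, 8.19 and 8.14 FPKM, and Phlda2 25, 30.8 and 36.2 against 12, 9.25 and 11.3. Among 28 tested quiescence regulators, 5 fell and 7 rose, close to the shares over all genes and 3 and 4 without knockout replicate 2 (3 fell also without wild-type replicate 2), with Rb1, the retinoblastoma protein, at 9.22, 12 and 12.6 against 26.5, 27.9 and 27 FPKM (1.2 ± 0.17). Of 32 genes that rise in aged stem cells 23 fell and 5 rose (median −1.28), among them the lectin receptor Clec1a (27.5, 15.3 and 12.7 against 2.01, 1.44 and 2.17 FPKM), the blood group gene Art4 and the phosphodiesterase gene Enpp5.

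Many genes of cell division were higher in the knockout. Of 52 mitosis genes, all of them tested, 47 rose and 1 fell (median 1.30), which was Pttg1, securin (−0.43, a call lost without 4 of the 6 libraries in turn), beside 22.5% and 23.2% of all genes. Plk1, the polo-like kinase that drives entry into mitosis, had 18.9, 19.3 and 25.4 FPKM in wild type and 105, 112 and 74 in the knockout (2.13 ± 0.17, adjusted p = 7.71e-06). The kinesin Kif2c had 16.2, 18.3 and 19.4 against 79.4, 77.6 and 54.9 FPKM, and the B cyclin Ccnb1 56.4, 65.9 and 76.5 against 276, 357 and 189.8. In each of these genes the knockout libraries lay above the wild-type libraries, with knockout replicate 3 the lowest of its group. Of 50 DNA replication genes tested 23 rose and 1 fell (median 0.43), the rises again above the 22.5% of all genes. Rrm2, a subunit of ribonucleotide reductase, rose from 123, 81.3 and 112 to 535, 713 and 429 FPKM, and the origin factors Mcm10, Cdc6 and Orc1 rose by 1.51, 1.40 and 1.26. Among 22 G1 cyclins and E2F factors 9 rose and 2 fell. Ccne1, the cyclin of entry into S phase, had 28.1, 17.3 and 23 against 182, 174 and 164 FPKM, and E2f2 1.54, 1.39 and 1.94 against 10.2, 17.6 and 12.8. Ccne1 and Ccnd2 therefore changed in opposite directions. Of 49 DNA repair genes 20 rose and 5 fell, with Parp1 at 0.84 and Fancd2 at 1.55, and 13 rose without knockout replicate 1 and 3 fell without wild-type replicate 3. The proliferation marker Mki67 had 3.92, 5.75 and 9.38 against 13.8, 17.7 and 9.88 FPKM and rose by 1.04 (adjusted p = 0.012, and 0.0531 without knockout replicate 2).

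Promoter stretches of mitosis and replication genes are shown because many hold letters found less often in other genes. CCAAT (reverse complement ATTGG), bound by NF-Y, was found in 33 of the 44 mitosis genes with a promoter in the table (75.0%), against 39.5% of the tested genes. TTTCNCGC (reverse complement GCGNGAAA), a form of the E2F site, was found in 12 of 42 replication genes (28.6%), against 4.02%. Both were searched on both strands of the same windows, and neither motif contains the other. The 3 called genes with the smallest p and a match upstream of the start were chosen for each list. Plk1 lies at chr7:122159396-122159434 (plus strand), Aurka at chr2:172370571-172370614 (minus strand), Ect2 at chr3:27153904-27153958 (minus strand), Cdc6 at chr11:98907988-98908045 (plus strand), Orc1 at chr4:108579402-108579453 (plus strand) and Uhrf1 at chr17:56303256-56303313 (plus strand), and capitals mark the match.
Plk1, CCAAT: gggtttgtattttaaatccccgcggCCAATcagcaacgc
Aurka, CCAAT: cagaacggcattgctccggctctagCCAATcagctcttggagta
Ect2, CCAAT: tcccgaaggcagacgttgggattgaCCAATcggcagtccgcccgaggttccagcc
Cdc6, E2F form: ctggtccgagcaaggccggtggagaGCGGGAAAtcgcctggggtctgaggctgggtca
Orc1, E2F form: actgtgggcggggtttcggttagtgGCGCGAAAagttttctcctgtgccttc
Uhrf1, E2F form: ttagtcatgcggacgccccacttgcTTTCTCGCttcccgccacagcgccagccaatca
Across all called genes the shares differed little, with CCAAT in 41.4% of the promoters of genes that rose and 36.3% of those that fell, and the E2F form in 4.62% and 3.29%.

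Erythroid genes rose while megakaryocyte genes were mixed. Of 39 erythroid genes tested 27 rose and 2 fell (median 1.67), and 27 rose also without knockout replicate 3, the library with the highest erythroid sum. Klf1, the master factor of red cell genes, had 14.3, 17.7 and 18.4 FPKM in wild type and 242, 203 and 216 in the knockout (3.64 ± 0.47). The blood group gene Rhd had 10.8, 13 and 11 against 204, 185 and 218 FPKM, the transferrin receptor Tfrc 6.3, 9.05 and 11.2 against 82.6, 74.1 and 75.6, and Gata1 40.1, 54.6 and 49.8 against 256, 211 and 199. These 4 genes were at like levels in all 3 knockout libraries. The globins were not: Hbb-bs had 334, 572 and 310.2 FPKM in wild type and 629, 436 and 6561 in the knockout, high in knockout replicate 3 alone, and did not pass (adjusted p = 0.116). The heme enzyme Alas2 had 5.27, 8.66 and 3.67 against 22.9, 15 and 164 FPKM, again highest in that library. Of 30 genes of iron and heme handling 19 rose and 0 fell, among them the iron exporter Slc40a1 (9.85, 8.55 and 9.48 against 465, 469 and 197 FPKM), which macrophages also express, and the heme enzyme Cpox (2.22).

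The letters AGATAA (reverse complement TTATCT), read by GATA factors, were found in 8 of 27 erythroid promoters (29.6%), against 6.34% of the tested genes, on either strand of the same windows. The 3 called erythroid genes with the smallest p and a match upstream are Trim10, a factor of red cell maturation (chr17:36869386-36869441, plus strand), Rhd (chr4:134864468-134864523, plus strand) and Epb42, a red cell membrane protein (chr2:121037073-121037127, minus strand). They are printed because both their level and these letters set them apart from most tested genes, with the match in capitals.
Trim10: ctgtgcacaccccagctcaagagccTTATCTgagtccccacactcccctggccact
Rhd: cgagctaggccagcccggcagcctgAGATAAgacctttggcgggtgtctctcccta
Epb42: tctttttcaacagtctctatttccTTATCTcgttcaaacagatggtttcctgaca
Among all tested genes the motif was found in 7.48% of promoters of genes that rose and in 6.45% of those that fell.

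Of 37 megakaryocyte and platelet genes tested 13 fell and 8 rose (median −0.21), beside 23.2% and 22.5% of all genes. Without wild-type replicate 2, 9 fell and 10 rose, and without knockout replicate 2, 9 fell and 8 rose. With the presence of Y-linked transcripts as a covariate 10 fell and 10 rose, and with quantile normalization 16 fell and 9 rose. The falls included the integrin chain Itgb3 (6.63, 6.52 and 7.03 against 2.62, 2.15 and 2.83 FPKM), the platelet protein Mmrn1 (89.7, 77.7 and 67.9 against 38.6, 28.8 and 21.5 FPKM), the transcription factor Nfe2 (851, 734 and 669.6 against 363, 244 and 292 FPKM) and Vwf, von Willebrand factor (10.5, 20.8 and 15.4 against 6.05, 3.41 and 3.76 FPKM). The rises included F13a1 and P2ry12, which macrophages also express, and Gata1. Pf4, platelet factor 4, had 69.9, 441 and 206 FPKM in wild type and 311, 166 and 313 in the knockout, spread widely within wild type, and the difference did not pass (adjusted p = 0.546).

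Myeloid genes were mostly higher. Of 31 myeloid progenitor genes tested 21 rose and 1 fell (median 2.15). Mpo, the peroxidase of granulocyte progenitors, had 118, 30.9 and 109 FPKM in wild type and 969, 849 and 703 in the knockout, and Irf8, a factor of monocytes and dendritic cells, 5.5, 4.95 and 3.8 against 48, 73 and 74.4. Neutrophil granule genes followed in 19 of 22 tested (median 3.34) but were uneven across libraries. Ngp had 67.3, 216 and 276 against 2131, 976 and 7178 FPKM and Ltf, lactoferrin, 3.9, 19.2 and 20.4 against 307, 119 and 1052, in each case highest in knockout replicate 3 and lowest in wild-type replicate 1. Without knockout replicate 3 17 of 22 rose with a median of 2.26, and without wild-type replicate 1 17 of 22 with a median of 2.68. The formyl peptide receptor Fpr1 was even, at 0.15, 0.80 and 0.363 against 25, 27.1 and 24 FPKM (4.22 ± 0.24). Marrow macrophage genes rose in 28 of 29, and 10 of the 29 were under 1 FPKM in every wild-type library. Vcam1, by which these macrophages hold other cells, had 3.15, 5.03 and 4.63 against 199.8, 301 and 110.2 FPKM, Timd4, a receptor for dying cells, 0.0261, 0.346 and 0.206 against 16.1, 18.9 and 7.47, and Hmox1, the heme-degrading enzyme, 20.1, 37.9 and 26.3 against 382, 466 and 241. Knockout replicate 3, the highest in neutrophil genes, was the lowest of the knockout libraries in each of these 3.

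The letters GAGGAAGT (reverse complement ACTTCCTC), a form of the site of PU.1, the myeloid master factor, were found in 4 of 24 myeloid progenitor promoters, against 3.44% of the tested genes. Over all called genes they were in 4.24% of the promoters of genes that rose and 2.55% of those that fell, and over changes of at least 2-fold in 6.76% and 2.28%. For the motifs above, the shares over such 2-fold changes were 39.6% and 35.1% for CCAAT and 9.56% and 8.42% for the GATA letters. They were 7.69% and 7.56% for the STAT motif and 2.45% and 2.28% for the E2F form. The myeloid examples are Mpo (chr11:87793535-87793592, plus strand), Elane, neutrophil elastase (chr10:79886202-79886259, plus strand), and Ly6c2, a monocyte antigen (chr15:75112047-75112104, minus strand), the 3 called members with the smallest p and a match upstream, printed with the match in capitals.
Mpo: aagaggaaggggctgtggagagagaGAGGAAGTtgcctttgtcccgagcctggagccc
Elane: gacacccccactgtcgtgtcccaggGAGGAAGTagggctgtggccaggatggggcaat
Ly6c2: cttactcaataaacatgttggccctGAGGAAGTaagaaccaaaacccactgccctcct
These are descriptions of the sequence, and binding was not measured.

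B cell genes were among the largest rises. Of 37 genes of B cell precursors tested 34 rose and 1 fell (median 3.85), and 14 of the 37 were under 1 FPKM in every wild-type library. Spib, a B lineage factor, had 0.131, 0.085 and 0.134 FPKM in wild type and 13.3, 24.7 and 32.1 in the knockout (4.37 ± 0.30). Pax5, which commits cells to the B lineage, was listed at 0, 0.0349 and 0.0701 FPKM in wild type and at 4.18, 8.67 and 9.72 in the knockout. Ms4a1, the CD20 antigen of mature B cells, had 24.9, 28.5 and 117 FPKM and Cd22 10.2, 9.93 and 43.8 in the knockout, both highest in replicate 3. Genes of the precursor stage, such as Rag2, a recombinase (12.8, 34.6 and 8.94 FPKM), and Igll1, of the surrogate light chain (342, 1008 and 246 FPKM), were instead highest in replicate 2. Which knockout library was highest therefore differed between B cell genes. Of 11 plasma cell genes tested 6 rose and 1 fell, with Ighm, the immunoglobulin mu chain, at 5.76, 5.95 and 6.45 against 1218, 2352 and 1459 FPKM, and of 24 lymphoid progenitor genes 14 rose and 3 fell. Among T and NK genes 21 of 24 tested rose, and 16 of the 24 were under 1 FPKM in every wild-type library, and 18 rose without knockout replicate 3. Cd3g, of the T cell receptor complex, had 0.296, 0.178 and 0.418 against 11.1, 19.3 and 72.9 FPKM and Cd4 0.757, 1.38 and 1.28 against 11.3, 13 and 15.5. Of 21 dendritic cell and MHC class II genes 12 rose and 4 fell, with Cd74, the invariant chain, at 241, 184 and 215 against 980.2, 1161 and 3988 FPKM, highest in knockout replicate 3. EBF letters (CCCNNGGGA, reverse complement TCCCNNGGG) were found in 2 of 27 B cell precursor promoters, against 7.57% of the tested genes.

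**Figure D3:**
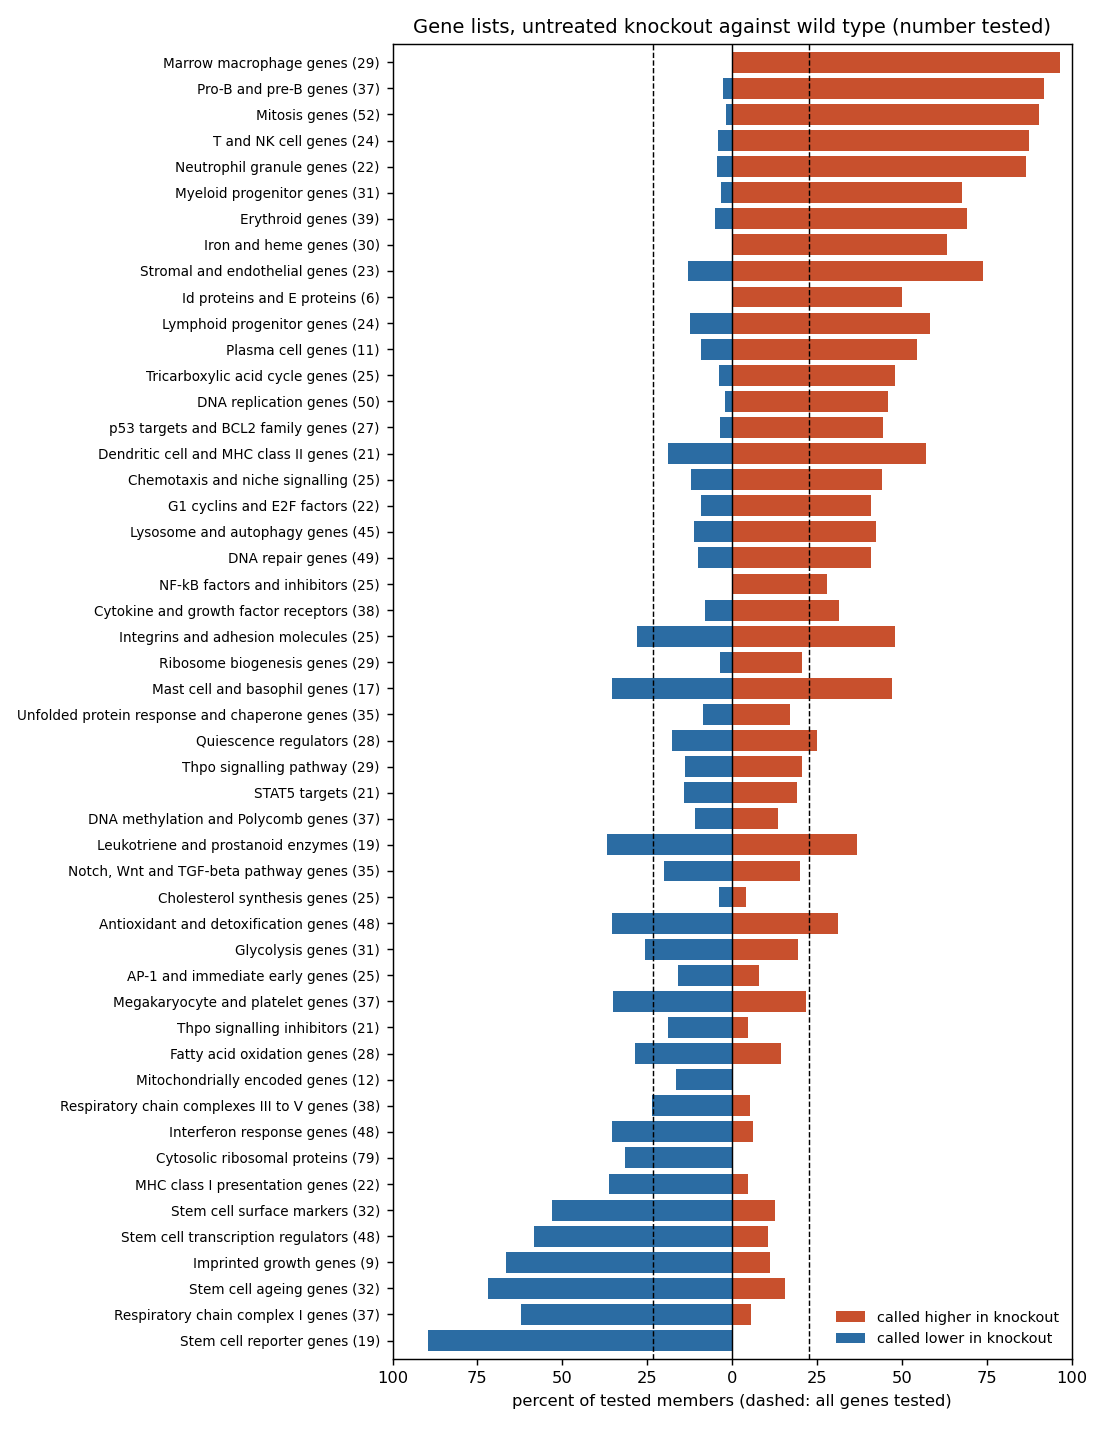
Percent of the tested members of each gene list that were called higher (right) or lower (left) in the untreated knockout, with dashed lines at the shares over all genes tested, 22.5% and 23.2%. Most lists of differentiated cells and the mitosis list extend to the right, and stem cell, respiratory complex I and ribosomal protein lists to the left. The megakaryocyte list extends further to the left than to the right.

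Markers of the bone marrow stroma were present as well. Of 23 stromal and endothelial genes tested 17 rose and 3 fell, and Cxcl12, the chemokine of niche cells, had 13.6, 9.23 and 0.747 FPKM in wild type and 62, 111 and 378 in the knockout. Sparc, a matrix protein, had 15.4, 10.1 and 3.79 against 99.8, 100.1 and 342 FPKM, and both were highest in knockout replicate 3. Without that library 15 of 23 rose. Mast cell and basophil genes split into 8 rises and 6 falls of 17. Il4, a cytokine of basophils and T cells, was among the 9 genes that fell at least 8-fold (21.4, 35 and 39.3 against 2.39, 1.87 and 1.91 FPKM, −3.39 ± 0.25), whereas the protease Cpa3 and the histidine decarboxylase gene Hdc rose by 1.88 and 3.22. In 25 genes of adhesion 12 rose and 7 fell: the leukocyte integrins Itgal and Itgb2 by 2.04 and 2.21, against the falls of Jam3, Esam and Itgb3. Of 25 genes of chemotaxis and niche signalling 11 rose and 3 fell (1 without knockout replicate 2), and 8 of the 25 were under 1 FPKM in every wild-type library, so that they passed the filter through the knockout alone. Ccr3, a chemokine receptor of eosinophils and basophils, had 0.356, 0.929 and 0.966 against 37.6, 47.8 and 13.9 FPKM, and Angpt1, a quiescence ligand that stem cells make themselves, fell from 59.3, 90.5 and 74.7 to 46.1, 23.4 and 24.5 FPKM.

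**Figure D4:**
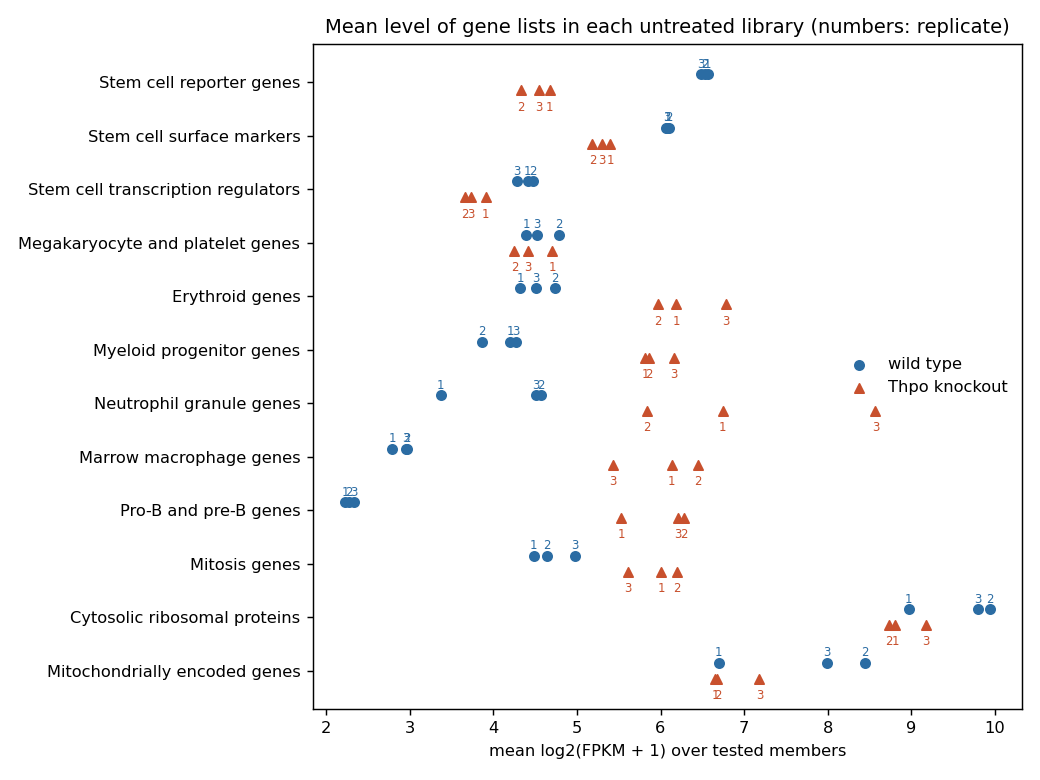
Mean log2(FPKM + 1) over the tested members of 12 gene lists in each untreated library, with wild-type libraries as circles and knockout libraries as triangles labelled by replicate. Neutrophil genes spread widest within the knockout, and wild-type replicate 1 lies below the other wild-type libraries for ribosomal protein and mitochondrially encoded genes.

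Genes of energy metabolism changed in both directions. In the tricarboxylic acid cycle 12 of 25 tested genes rose and 1 fell. Citrate synthase, Cs, had 51.7, 54.3 and 60.7 FPKM in wild type and 126, 116 and 104 in the knockout (1.04 ± 0.13), and Dlst and Dlat, of the 2-oxoglutarate and pyruvate dehydrogenase complexes, rose by 1.0 and 0.89. Respiratory complex I went the other way, with 23 of 37 nuclear genes lower and 2 higher (median −0.45). Ndufa7, an accessory subunit, had 702, 593 and 569 against 313, 321 and 342 FPKM, while the large core subunit Ndufs1 rose from 82.1, 73.1 and 70.8 to 148, 135 and 114 FPKM. Gene length moved with this result: 27 of the 37 genes lay among the 3089 shortest tested genes by exon length, of which 1096 fell and 554 rose (median −0.26), against 549 and 619 of the 3086 longest, and its part was not tested. The count also rested on single libraries and on the scaling: 11 fell without wild-type replicate 3, 12 without knockout replicate 1, 15 without wild-type replicate 1 and 11 with median-of-ratios scaling. Of 38 genes of complexes III to V 9 fell, near the 23.2% of all genes, and 2 rose. With only the 6 untreated libraries fitted, 14 of these genes fell and 1 rose. Their falls numbered 3 without knockout replicate 1, wild-type replicate 2 or wild-type replicate 3 or with median-of-ratios scaling, and 5 without knockout replicate 2, and their rises 0 without knockout replicate 2 or wild-type replicate 2 and 5 with quantile normalization. Of 31 glycolysis genes 8 fell and 6 rose, both near the shares over all genes, and 5 fell without knockout replicate 2, wild-type replicate 1 or wild-type replicate 2. Hk2, a hexokinase, had 12.1, 9.85 and 10.3 against 3.3, 2.83 and 4.96 FPKM and Ldhb, a lactate dehydrogenase chain, 429, 314 and 264 against 81.7, 63 and 72.3, both clearly lower in every knockout library. Of 28 fatty acid oxidation genes 8 fell and 4 rose, with 3 falls without knockout replicate 3 and 5 without knockout replicate 2 or wild-type replicate 2. Of 25 cholesterol synthesis genes 1 fell and 1 rose, and 3 fell without wild-type replicate 1 and 7 with quantile normalization. Detoxification genes were split, 17 lower and 15 higher of 48, both above the shares over all genes. The glutathione transferases Gsta4 (35.7, 39.7 and 36.5 against 10.7, 10.4 and 9.77 FPKM) and Gstt1 (−1.91) were lower and Hmox1 and Gclc (0.98) higher.

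The number of calls among ribosomal protein genes depended on which libraries were used. Of 79 tested 25 fell and 0 rose, and 78 had a negative log2 fold change (median −0.69). Of the 79, 54 lay among the 3089 shortest tested genes by exon length, whose median was −0.26, and the part of length was not tested. Their summed level was 55611, 106850 and 95278 FPKM in wild-type replicates 1, 2 and 3 and 48343, 45655 and 60679 in the knockout, so that wild-type replicate 1 lay within the knockout range. Without that library 67 of 79 fell, with a median of −0.99. Without wild-type replicate 2 or 3 or knockout replicate 1 or 2, 8 to 11 fell, and 12 with median-of-ratios scaling. Rps14 had 2065, 3359 and 2968 FPKM in wild type and 1214, 1204 and 1503 in the knockout. Mitochondrially encoded genes showed the same split of the wild-type libraries, with summed levels of 6117, 13958 and 10978 FPKM and of 5848, 5834 and 7414. Of 12 tested 2 fell, 8 fell without wild-type replicate 1, and 0 without wild-type replicate 2 or knockout replicate 1 or 2. Also in this pattern was B2m, the light chain of MHC class I, at 3702, 9097 and 8325 against 2619.8, 3055 and 3794 FPKM (−1.07 ± 0.33, and −1.48 without wild-type replicate 1). Its call was lost without wild-type replicate 2 or 3 or knockout replicate 1. Of 29 ribosome biogenesis genes 6 rose, near the share over all genes, 1 fell and 22 did not pass.

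**Figure D5:**
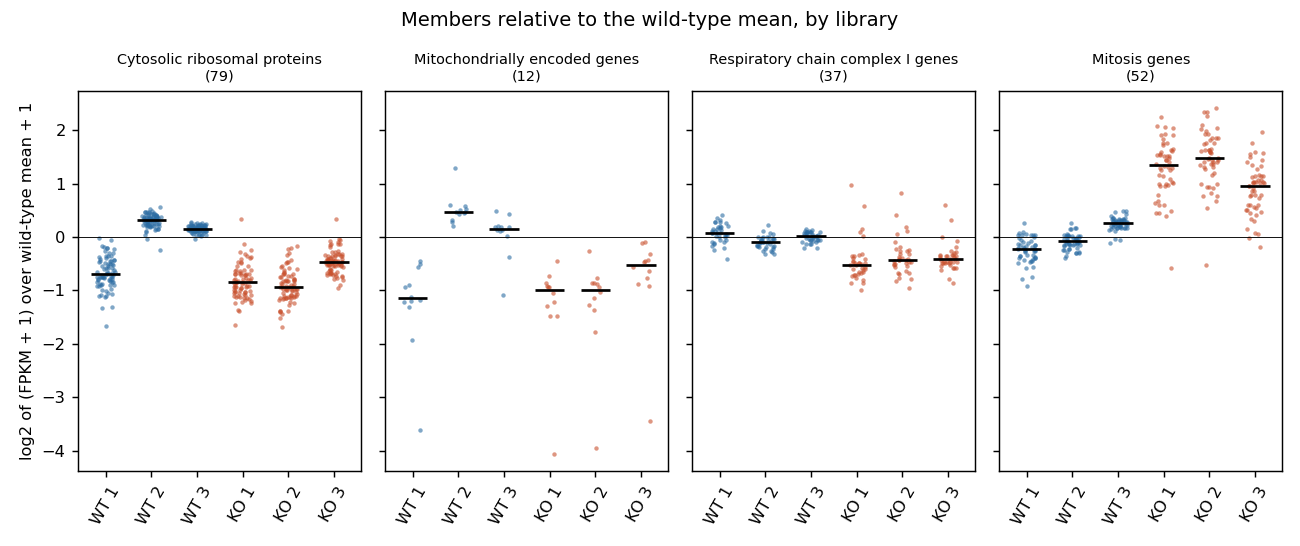
log2 of (FPKM + 1) relative to the mean of the 3 wild-type libraries (y axis), for ribosomal protein genes (79), mitochondrially encoded genes (12), complex I genes (37) and mitosis genes (52) in each untreated library, with 1 point per gene and the median as a bar. Wild-type replicate 1 lies near the knockout libraries for the first 2 sets only.

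Among immune and stress programmes, interferon response genes fell in 17 of 48 and rose in 3. The falls included the family Ifitm1, Ifitm2 and Ifitm3, membrane proteins that stem cells express without infection. Ifitm2 had 2139.8, 2146 and 2394 FPKM in wild type and 803, 727 and 803 in the knockout, and the antiviral genes Bst2, Xaf1 and Rtp4 fell by 0.83, 1.0 and 1.06. In MHC class I presentation 8 of 22 fell and 1 rose; the immunoproteasome genes Psmb8, Psmb9 and Psmb10 fell by 0.67, 0.47 and 0.61 and the peptide transporter Tap1 rose by 0.51 (not without knockout replicate 1). The falls numbered 11 without wild-type replicate 1, 5 without wild-type replicate 2 or knockout replicate 2 or with quantile normalization, and 4 without wild-type replicate 3 or knockout replicate 1. Of 25 NF-kB genes 7 rose (3 without wild-type replicate 3), beside 22.5% of all genes, and 0 fell (3 without knockout replicate 3). The rises were led by Tnfaip3, a feedback inhibitor (1.65, 3.07 and 2.07 against 7.46, 7.72 and 7.77 FPKM). Of 27 p53 target and BCL2 family genes 12 rose and 1 fell (4 with quantile normalization), and 2 of the 27 were under 1 FPKM in every wild-type library. Bcl2l11, which codes for the death factor BIM, had 4.46, 4.58 and 4.62 against 10.3, 11 and 9.87 FPKM, with little spread within either group (1.04 ± 0.12). Immediate early genes gave 4 falls (9 without wild-type replicate 3) and 2 rises of 25, led by Ier3 (132, 99.5 and 52.5 against 22.9, 13.1 and 20.8 FPKM). In the unfolded protein response 6 of 35 rose and 3 fell, both under the shares over all genes, with the sensor Eif2ak3 at 1.18, and 19 of 45 lysosome genes rose and 5 fell, led by cathepsin S, Ctss (27.4, 22 and 15.9 against 149, 245 and 188 FPKM), a protease of antigen-presenting cells.

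Lists of chromatin and developmental signalling genes did not exceed the shares over all genes, 22.5% higher and 23.2% lower. Of 37 DNA methylation and Polycomb genes 5 rose and 4 fell (2 without wild-type replicate 2 or 3, and 9 with quantile normalization), with Mbd2, a reader of methylated DNA, at 70.014, 67.6 and 61.5 against 147, 145 and 156 FPKM and Uhrf1, which guides maintenance methylation in S phase, at 1.16. Of 35 genes of the Notch, Wnt and TGF-beta pathways 7 rose and 7 fell, and 4 of the 35 were under 1 FPKM in every wild-type library. The falls numbered 3 without knockout replicate 1 or 2 or wild-type replicate 2 or 3. The rises included the lymphoid factors Lef1 (0.317, 0.281 and 0.282 against 29, 68.2 and 25.4 FPKM) and Tcf7 and the Notch targets Heyl (0.20, 0.222 and 0.0559 against 4.77, 10.6 and 4.67 FPKM) and Hes1 (1.69). Among 19 enzymes and receptors of leukotrienes and prostanoids 7 rose and 7 fell, both above the shares over all genes. Of the 19, 2 were under 1 FPKM in every wild-type library, so that they could only rise. Alox5, which makes leukotrienes, rose by 2.91, and Cysltr2, a receptor for them, fell by 1.58.

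Outside the lists, the falls with the smallest p included genes known from other tissues. Lhcgr, the luteinizing hormone receptor, had 18.6, 24.5 and 23.8 FPKM in wild type and 1.17, 0.963 and 1.05 in the knockout (−3.49 ± 0.17, adjusted p = 8.89e-07). Guca1a, a guanylate cyclase activator known from photoreceptors, had 51.6, 57.7 and 54.9 against 9.3, 7.61 and 7.93 FPKM, and the disulfide isomerase homologue Erp27 47, 30.2 and 34.1 against 3.01, 1.61 and 2.2. Every knockout library lay far below the lowest wild-type library in these genes. Bex1, Cpne8 and Casp12 were as widely separated, with log2 fold changes of −3.08, −2.99 and −2.49. Rises with a small p included Pltp, a phospholipid transfer protein (0.481, 0.413 and 0.249 against 10.6, 14.8 and 11.5 FPKM), the receptor kinase Acvrl1 (0.375, 0.226 and 0.431 against 7.88, 8.63 and 11.3 FPKM), and the lipid regulator Pparg (1.05, 1.26 and 1.1 against 20.5, 19.9 and 22.1 FPKM).

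Long noncoding genes were mostly lower: of 559 tested, 282 fell and 45 rose (median −0.55, 58.5% called against 45.6% of all genes). The antisense transcript Tnfsf13os had 52.7, 60.1 and 55.3 FPKM in wild type and 3.95, 2.95 and 2.99 in the knockout (−3.74 ± 0.21), and Hoxb5os, from the Hoxb cluster, 11.5, 14.4 and 8.93 against 1.84, 2.06 and 1.67. The kit does not mark the strand, so that reads of these genes cannot be told from those of Tnfsf13 (−1.53) and Hoxb5 (−1.5), which they overlap. Of the rises, Redrum, a noncoding RNA of red cell precursors, had 0.032, 0.231 and 0.407 against 3.13, 2.81 and 4.03 FPKM and Pvt1, the neighbour of Myc, 5.24, 3.9 and 6.77 against 14, 13.3 and 13.9. Around Thpo the share of calls was close to that over all genes in the wider windows only, with 45.9% within 5 Mb. Within 10 Mb 63 of 136 were called (46.3%). Within 1 Mb of Thpo 20 genes were tested, of which 3 rose and 3 fell, a smaller share than over all genes.

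The genotype comparison under Romiplostim shares no library with the untreated one, and the difference between both effects was tested as an interaction. It passed for 2012 of 12418 genes (16.2%). Under the agonist 80 genes were called higher and 88 lower in the knockout, and 148 genes were called in both comparisons with the same sign. With opposite signs 1 gene was called in both, the Notch target Hes1. Its difference was 1.69 without and −1.98 with the agonist (adjusted p = 0.0108), an interaction of −3.67 (adjusted p = 0.000885). The untreated effect is a part of the interaction, so that a sign opposite to it, as in 1924 of the 1926 genes called in both tests, is partly built in. For Cish, the genotype difference was −0.74 with the agonist (25.4, 36.2 and 36.4 FPKM in wild type, 14.4, 33.4 and 13.7 in the knockout) and −3.13 without, an interaction of 2.39 ± 0.45 (adjusted p = 0.0066). Plk1 differed by 0.19 with the agonist and 2.13 without (interaction −1.94 ± 0.25, adjusted p = 0.00118). A few genes, picked after their values were seen, were also called under the agonist. Rhd had 0.833, 0.127 and 0.464 FPKM in treated wild type and 196, 41.7 and 37.7 in treated knockout (5.57 ± 0.47), the imprinted gene Phlda2 47.6, 49.1 and 51.8 against 14.3, 19.7 and 18.6 (−1.46 ± 0.16) and the scramblase Plscr2 50.4, 32.9 and 31.2 against 4.94, 4.2 and 4.48 (−2.79 ± 0.29). The interactions of these 3 were 1.56, −0.05 and −0.17 and did not pass. All 3 treated knockout libraries lacked Y-linked transcripts (mean of at most 0.0389 FPKM), whereas all untreated knockout libraries held them, and with the presence of Y-linked transcripts as a covariate the interaction passed for 310 genes. Their part in the result was not tested.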

How the data were processed

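Gene expression was measured by RNA sequencing of sorted hematopoietic stem cells in 12 libraries. The authors deposited 1 table of FPKM values for 35275 Ensembl identifiers, of which 34490 matched the GENCODE annotation and 785 did not. The submitters' processing notes name TopHat2, Cufflinks 2.2.1 and mm10, and their settings are not given in the sources used here. FPKM values are not counts, so that no count model was used. Depth was estimated from the steps between low FPKM values, of which 90.2 to 92.1% were whole fragments within 0.05, at 28.7 to 35.2 M fragments per untreated library.

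Values were analysed as log2(FPKM + 1), a scale that understates the change of low genes. Genes with at least 1 FPKM in 3 of the 6 untreated libraries were fitted with limma 3.58.1 in R 4.3.3, on all 12 libraries with 4 group means and an intensity trend, and p-values were adjusted by Benjamini-Hochberg over all 12418 genes, with a threshold of 0.05. The difference between both genotype effects was a contrast of the same fit. Errors beside log2 fold changes are standard errors with n = 3 per group. The procedure was tested on simulated data.

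Genes were named by a rule: Thpo, the 15 largest and 15 most significant changes per direction, genes on in 1 group only, up to 6 members per list by p, members of the Thpo signalling lists, noncoding genes, neighbours of Thpo, and abundant genes with a narrow interval around 0. Others were named after their values were seen, among them Kit, Cd34, Ly6a, the Hox genes, Mecom, Meis1, Mpo, Elane, Pax5, Hbb-bs, Alas2, Klf1, Vwf, Mmrn1, Nfe2, Angpt1, Mki67, Pf4, Pttg1, Ighm, Dcn, Esam, Krt18, Il10rb, Rag2 and Ccnb1. Some genes that the rule takes are not reported here. The comparison, the gene lists and the members were chosen with earlier results of these data known. Alternatives covered the pseudocount, filter, scaling, trend, weights, the libraries fitted, a replicate block, a covariate for Y-linked transcripts and leaving out each untreated library.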

Additional observations from a re-analysis of the deposited data

Results flagged for a closer look

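The genotype effect differed between mice with and without Romiplostim in 2012 genes by the interaction contrast (limma, adjusted p under 0.05). Among the genes examined, the interaction was 3.59 on the log2(FPKM + 1) scale for Ifitm1, 2.53 for Procr, 2.39 for Cish, 1.97 for Socs2 and 1.24 for Ccnd2, which were lower in the untreated knockout. It was −1.94 for Plk1, −3.67 for Spib and −3.92 for Fpr1, which were higher there. Each sign is opposite to the untreated difference, which is a part of the contrast.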

How the results depend on the processing

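Over the 18 alternatives, the number of genes called between the untreated genotypes kept within 1.5 times the 5666 reported. Leaving out each untreated library gave 4753 to 5506 calls, with 2312 to 2719 higher and 2323 to 2854 lower. The share of rises among calls was 49.2%, and stayed within 10 percentage points of it in every setting, with 42.3% after quantile normalization, under which the median log2 fold change over all genes went from −0.02 to −0.09.

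The interaction was less stable. It passed for 2012 genes as reported, for 5934 with array weights and for 310 with the covariate for Y-linked transcripts, and for 1372 to 1897 when each untreated library was left out. The covariate separates all treated from all untreated knockout libraries, and the cause of either shift was not tested.

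Of 171 named genes that were called, 161 were called in every setting in which they were tested and 0 reversed. The other 10 were B2m, Ccnd3, Inpp5d, Map2k2, Mki67, Ptpn11, Pttg1, Spry1, Stat3 and Tap1. A further 8 named genes without a call gained one in at least 1 setting, namely Ccnd1, Cd34, Hbb-bs, Jak2, Kit, Sh2b3, Socs3 and Tcf4.

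With a replicate block 5660 genes were called and 1970 passed the interaction, and the calls of Spry1 and Stat3 were lost. Libraries with the same number did not deviate together (correlations of 0.0744, −0.201 and −0.0771 for numbers 1, 2 and 3), and the labels give the number no meaning, so that the reported fit has no block.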
